A study of Homo sapiens with 6 samples.

Results

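The genes described here are 10 members of the BCL2 family, the proteins that decide whether the outer membrane of mitochondria is opened during apoptosis. The rule takes them by symbol and function and uses no measured value: 4 antiapoptotic genes (MCL1, BCL2, BCL2L1 and BCL2A1), 4 BH3-only genes (BCL2L11, BIK, PMAIP1 and BBC3) and 2 pore-forming genes (BAX and BAK1). All 10 had a row among the 32268 gene rows used, and 9 of them passed the filter on low read counts and were tested among 18326 genes. RNA sequencing compared 3 libraries of cells given compound 28 at 500 nM for 4 h with 3 libraries of cells given DMSO, the vehicle, for which no time is stated separately. The titles name the cells MDA-MB-231, an established human line of triple-negative breast cancer, and the labels give the genotype of both groups as WT, although their cell line field counts upward by sample to MDA-MB-236. Compound 28 is described in the series title as a CDK9 degrader, a molecule that leads the cell to destroy the kinase CDK9. The labels do not say whether replicates came from separate cultures, and p-values here reflect the spread among 6 libraries, part or all of which may be technical.

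Antiapoptotic members bind and hold back the pore formers BAX and BAK1. BH3-only members are sensors of stress that fill the groove of the antiapoptotic proteins or activate the pore formers directly, and free BAX and BAK1 then perforate the membrane and release cytochrome c. CDK9 lets RNA polymerase II leave its pause near promoters, and genes with short-lived transcripts, MCL1 among them, are widely known to respond early when CDK9 is inhibited. The question that the comparison addresses for this family is therefore how the transcripts of protectors, sensors and pore formers stood to each other after compound 28.

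The feature that joins the 3 classes is the BH3 stretch, the short helix by which members bind each other. Its coding sequence is shown because the 3 classes have it in common. A pattern of a leucine codon, 3 codons of any kind, a glycine or alanine codon, an aspartate codon and then an aspartate, glutamate or lysine codon was found in the annotated coding sequence of 7 of 8 members searched, with no match in BCL2A1. The sequences of MCL1 and BIK were not used here. Each line gives 30 bases of the coding strand, 5′ to 3′, with 2 codons before the pattern and 1 after it. Capitals mark the leucine codon and the pair of codons for glycine or alanine and for aspartate.
BCL2: ctgaccCTCcgccaggccGGCGACgacttc
BCL2L1: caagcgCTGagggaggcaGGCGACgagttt
BCL2L11: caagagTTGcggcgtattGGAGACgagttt
PMAIP1: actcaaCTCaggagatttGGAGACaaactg
BBC3: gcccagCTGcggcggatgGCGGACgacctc
BAX: gagtgtCTCaagcgcatcGGGGACgaactg
BAK1: cggcagCTCgccatcatcGGGGACgacatc

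These stretches lie within single coding exons of GENCODE 29 on GRCh38. On the minus strand they stand at chr18:63318355-63318384 for BCL2, chr20:31721928-31721957 for BCL2L1, chr19:47226585-47226614 for BBC3 and chr6:33575393-33575422 for BAK1. On the plus strand they stand at chr2:111150097-111150126 for BCL2L11, chr18:59902667-59902696 for PMAIP1 and chr19:48955781-48955810 for BAX. Over the 21 pairs of these stretches, between 11 bases (BCL2 and PMAIP1) and 20 bases (BCL2L1 and BCL2L11) of 30 were identical. Part of this identity follows from the pattern by which the stretches were chosen.

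The compound 28 libraries held 28466674 to 34015170 reads assigned to genes, and the DMSO libraries held 37153389 to 54774118. Reads that the counter assigned to no gene made up 43.1% ± 3.36 of all reads in compound 28 libraries and 31.9% ± 1.36 in DMSO libraries (SD, n = 3 each). Reads that mapped to more than 1 place made up 20.8% ± 3.96 in compound 28 libraries and 11.2% ± 0.278 in DMSO libraries, and stood highest, at 25.4%, in compound 28 replicate 1, the library with the lowest BIK; the part of this in the BIK value was not tested. Mitochondrially encoded mRNAs took 7.02% ± 0.418 of gene reads in compound 28 libraries and 3.51% ± 0.320 in DMSO libraries, and mRNAs of cytosolic ribosomal proteins took 16.8% ± 0.340 in compound 28 libraries and 10.6% ± 1.28 in DMSO libraries. Each of these 4 shares was higher in 3 of 3 compound 28 libraries, with p = 0.1 in a two-sided exact permutation test, the smallest p that 3 against 3 can give. The 10 members together took 0.0721% ± 0.000351 of gene reads in compound 28 libraries and 0.0968% ± 0.00337 in DMSO libraries (exact p = 0.1). Of 19 genes listed as markers of MDA-MB-231, 11 reached 1 CPM in every library. CAV1 had 4 reads over the compound 28 libraries and 1 read over the DMSO libraries. CAV2, EGFR, COL4A1 and KRT19, counted among the 19, had no row among those used here. Of 15 markers of myeloid cells, 13 reached 1 CPM in every library, summing to 4410 to 4636 CPM in compound 28 libraries and 3460 to 4034 CPM in DMSO libraries. The 3 erythroid markers summed to 0.246 to 20.8 CPM in compound 28 libraries and 0.128 to 0.404 CPM in DMSO libraries. The MDA-MB-231 list summed to 1912 to 2088 CPM in compound 28 libraries and 1730 to 2144 CPM in DMSO libraries. Much of this was MSN, at a mean of 1371 CPM in compound 28 libraries and 1047 CPM in DMSO libraries. The 8 receptor and epithelial genes, listed as low in MDA-MB-231, summed to 0.823 to 2.85 CPM in compound 28 libraries and 4.97 to 5.57 CPM in DMSO libraries. The 6 T and B cell markers summed to 7.80 to 8.66 CPM in compound 28 libraries and 4.04 to 4.36 CPM in DMSO libraries. The low receptor and epithelial genes go with the name in the titles, while the myeloid markers and the absent MDA-MB-231 markers go against it. The cells are therefore called here by their treatment, and which cells they were cannot be told from these markers. In bulk RNA, fewer cells of a type and less RNA per cell cannot be told apart.

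Levels between genes are compared as normalized counts per kb, that is, counts divided by the size factors of the authors and by the length of all annotated exons. In compound 28 libraries BAX stood highest at 3668 ± 115 per kb, followed by MCL1 at 1731 ± 48.3 and BCL2 at 830 ± 48.1 (SD, n = 3). BBC3 (430 ± 30.6) and BAK1 (367 ± 50.8) came next and overlapped each other, as did BCL2L11 (209 ± 12.9) and PMAIP1 (182 ± 24.3) after them. BCL2L1 (123 ± 13.2), BIK (38.6 ± 20.7) and BCL2A1, with no read, closed the order. In DMSO libraries BAX (3978 ± 584 per kb) and MCL1 (1599 ± 149) were again the top pair. BAK1 (652 ± 34.2), BBC3 (585 ± 59.4), BCL2 (559 ± 150) and PMAIP1 (438 ± 43.3) followed, each overlapping its neighbour. BIK (323 ± 25.0) stood above BCL2L11 (237 ± 50.9) and BCL2L1 (178 ± 24.1), which overlapped, and BCL2A1 came last at 9.06 ± 4.67. BCL2 thus stood clear of BBC3 and BAK1 in compound 28 libraries and level with them in DMSO libraries, while BIK stood below BCL2L11 and BCL2L1 in compound 28 libraries and above both in DMSO libraries.

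**Figure D1:**
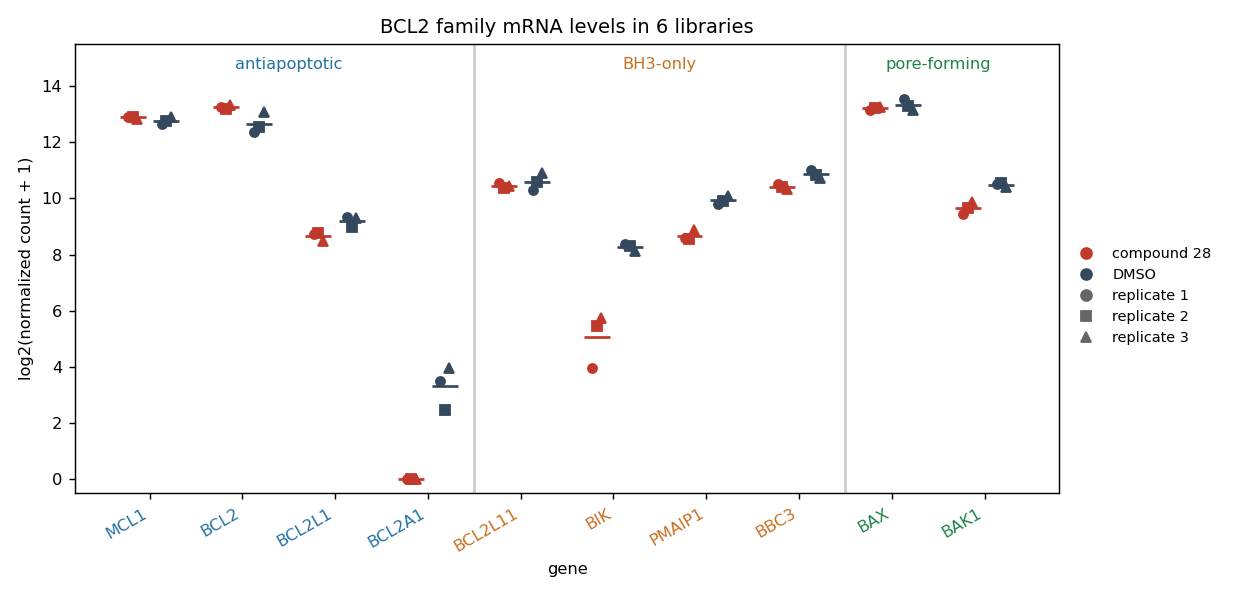
Level of each of the 10 members in each library as log2(normalized count + 1), with compound 28 in red on the left and DMSO in dark blue on the right of each gene; marker shapes give the replicate number and short lines the group means. BIK, PMAIP1 and BAK1 lie lower in all 3 compound 28 libraries, BCL2 lies higher in all 3 at the authors' scaling (not with library sizes, mitochondrially encoded or ribosomal protein mRNAs as the scale), and MCL1, BCL2L11 and BAX overlap between the groups.

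Among the antiapoptotic genes, with the authors' size factors, BCL2 rose after compound 28 (it stood lower when mitochondrially encoded or ribosomal protein mRNAs set the scale and was not called with library sizes), BCL2L1 fell, and MCL1 did not pass the test. Tests were made with limma-trend on log2(normalized count + 1), called at a Benjamini-Hochberg adjusted p under 0.05 over all tested genes. MCL1, a survival protein with a short life, had 7722, 7654 and 7327 normalized counts in compound 28 libraries, against 6383, 6904 and 7680 in DMSO libraries. The groups overlapped through DMSO replicate 3, and the log2 change was 0.12 with a 95% interval of -0.08 to 0.32 (SE 0.09, adjusted p = 0.251). Without DMSO replicate 3, MCL1 was called higher with a log2 change of 0.19 (adjusted p = 0.0406). An RNA annotated on the same strand as MCL1 and overlapping one of its exons, ADAMTSL4-AS1, averaged 484 normalized counts in compound 28 libraries and 23.5 in DMSO libraries, and its part in the MCL1 value was not tested.

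BCL2, the founding member of the family, had 9748, 9202 and 10335 normalized counts in compound 28 libraries, against 5223, 5946 and 8578 in DMSO libraries. All 3 compound 28 libraries lay above the highest DMSO library, and the means were 9762 ± 566 in compound 28 libraries and 6582 ± 1766 in DMSO libraries (SD, n = 3 each). The log2 change was 0.60 (SE 0.16, adjusted p = 0.00520), a 1.52-fold rise. Scaled by library size alone, BCL2 stood at 227, 215 and 234 CPM in compound 28 libraries, against 165, 191 and 268 CPM in DMSO libraries, with overlap. DMSO replicate 3 stood apart from the other DMSO libraries for this gene, and the log2 change was 0.81 without it (adjusted p = 1.23e-05) and 0.45 without DMSO replicate 1 (adjusted p = 0.0158).

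The DMSO libraries differed with transcript length. Over 10403 protein-coding genes averaging at least 100 normalized counts, the log2 difference of DMSO replicate 3 minus DMSO replicate 1 rose with exon length (Spearman's rho 0.35, across genes, which are not independent replicates), as did that of DMSO replicate 2 minus DMSO replicate 1 (rho 0.36). Replicate 3 minus replicate 1 was 0.72 for BCL2 and 0.62 for BCL2L11, which have long annotated exons, and -0.41 for BAX; replicate 2 minus replicate 1 was 0.19, 0.28 and -0.26 for the same genes. For the mean of compound 28 minus the mean of DMSO, rho was 0.12. The part of this length trend in the values of these genes was not tested.

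BCL2L1, which encodes the protector BCL-XL, had 427, 435 and 356 normalized counts in compound 28 libraries, against 642, 499 and 631 in DMSO libraries. No compound 28 library reached the lowest DMSO library. The log2 change was -0.54 (SE 0.14, adjusted p = 0.00646), a 1.45-fold fall. BCL2A1, a protector best known in blood cells, had 0 reads in each compound 28 library and 18, 7 and 17 reads in the DMSO libraries. With the compound 28 group set to a floor of 3 reads in all, it was at least 6.69-fold lower. It did not pass the filter on low counts. Without that filter it was called lower (limma-trend, adjusted p = 0.000660), and its adjusted p in the authors' deposited table was 0.00300. With 0 reads in compound 28 libraries BCL2A1 could only be called lower, so the direction of these calls lends no support.

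Of the 4 BH3-only genes, 3 fell and none rose, where 37.2% of all tested genes were called lower and 35.6% higher. With upper-quartile factors BBC3 lost its call (adjusted p = 0.0755). BIK, which acts from the endoplasmic reticulum, had 14.7, 42.8 and 52.8 normalized counts in compound 28 libraries (10, 34 and 34 reads), against 329, 312 and 282 in DMSO libraries (568, 482 and 327 reads). Its highest compound 28 library lay well below its lowest DMSO library. The log2 change was -3.21 (SE 0.40, adjusted p = 3.44e-05), a 9.24-fold fall, and the ratio of the group means was 8.37-fold. Only 3.03% of all tested genes had a lower log2 change.

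PMAIP1, which encodes NOXA, a sensor that binds mainly MCL1, had 380, 371 and 469 normalized counts in compound 28 libraries, against 888, 967 and 1080 in DMSO libraries. The groups were far apart, and the log2 change was -1.27 (SE 0.13, adjusted p = 9.96e-06), a 2.41-fold fall. BBC3, which encodes PUMA, a sensor that binds all the main protectors, had 1476, 1343 and 1287 normalized counts in compound 28 libraries, against 2070, 1808 and 1704 in DMSO libraries. The groups did not overlap, and the log2 change was -0.44 (SE 0.10, adjusted p = 0.00293), a 1.36-fold fall.

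BCL2L11, which encodes BIM, which binds all the main protectors as well, had 1481, 1309 and 1394 normalized counts in compound 28 libraries, against 1261, 1529 and 1934 in DMSO libraries. The DMSO libraries spanned the compound 28 libraries, and the log2 change was -0.15 with a 95% interval of -0.47 to 0.16 (adjusted p = 0.346). It was called lower without DMSO replicate 1 (-0.30, adjusted p = 0.0492) and stood at 0.00 without DMSO replicate 3. MIR4435-2HG, annotated on the opposite strand across an exon of BCL2L11, averaged 615 normalized counts in compound 28 libraries and 899 in DMSO libraries. The strand setting of the counting is not given in the sources used here, so how reads over both genes were counted is uncertain. Reads that the counter set aside as ambiguous made up 6.29% ± 0.351 of all reads in compound 28 libraries and 7.20% ± 0.170 in DMSO libraries (SD, n = 3). The part of these reads in the BCL2L11 value was not tested.

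The pair of pore formers did not move alike. BAK1, which sits in the outer membrane, had 704, 802 and 928 normalized counts in compound 28 libraries, against 1475, 1497 and 1356 in DMSO libraries. All compound 28 libraries lay below all DMSO libraries, and the log2 change was -0.84 (SE 0.12, adjusted p = 8.35e-05), a 1.79-fold fall. BAX, which moves from the cytosol to the membrane, had 9160, 9570 and 9739 normalized counts in compound 28 libraries, against 11938, 9961 and 8972 in DMSO libraries. The groups overlapped, and the log2 change was -0.11 with a 95% interval of -0.34 to 0.13 (adjusted p = 0.384). The log2 ratio of BAK1 over BAX within a library was -3.70, -3.58 and -3.39 in compound 28 libraries, against -3.02, -2.73 and -2.73 in DMSO libraries, with no overlap.

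Of the 9 members tested, 1 rose, 5 fell and 3 were not called, where 35.6% of all tested genes were called higher and 37.2% lower. The median log2 change was -0.44 over the 9 members and -0.03 over all tested genes. By class, the median log2 change was 0.12 over 3 antiapoptotic genes (1 called higher, 1 lower), -0.85 over 4 BH3-only genes (0 higher, 3 lower) and -0.47 over 2 pore-forming genes (0 higher, 1 lower). With BCL2A1 included, in the fit with no filter, the antiapoptotic median turned to -0.21 (1 higher, 2 lower of 4). This turn came from BCL2A1 alone, whose 0 reads in compound 28 libraries fixed its direction in advance, so it lends no support. Groups did not overlap for 6 of the 9, where 75.7% of all tested genes had no overlap, so the members' share was not above the background. BCL2 stood above 68.5% of all tested genes by log2 change and MCL1 above 54.5%, while BBC3 stood above 37.1%, BCL2L1 above 34.5%, BAK1 above 27.3% and PMAIP1 above 18.7%.

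The direction of several members differed with the scaling. TMM factors gave 1 member higher and 5 lower, the same counts as the authors' factors, with 34.9% of all genes called higher and 37.9% lower. Upper-quartile factors gave 2 higher (MCL1 at 0.32 and BCL2 at 0.80) and 3 lower (BIK, PMAIP1 and BAK1), with 41.7% of all genes higher and 31.3% lower. Library sizes alone gave 0 higher and 8 lower, with BCL2 not called (0.15, adjusted p = 0.390), where 23.2% of all genes were higher and 50.7% lower. With ribosomal protein mRNAs as the scale, 0 members were higher and 8 lower, with BCL2 at -0.52 (adjusted p = 0.0508), where 12.3% of all genes were higher and 67.8% lower. With mitochondrially encoded mRNAs as the scale, 0 members were higher and 9 lower, beside 10% and 75.7% of all genes.

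BIK, PMAIP1 and BAK1 were called lower under each of these 6 scalings. Their log2 changes ran from -4.63 to -3.01 for BIK, from -2.72 to -1.06 for PMAIP1 and from -2.29 to -0.64 for BAK1. MCL1 ran from -1.34 with mitochondrially encoded mRNAs, where it was called lower, to 0.32 with upper-quartile factors, where it was called higher. The median over all genes moved with the scalings as well, to -0.48 with library sizes, -1.13 with ribosomal protein mRNAs, -1.47 with mitochondrially encoded mRNAs and 0.17 with upper-quartile factors. A scaling moves all genes of a library together, so where a member lies relative to this median hardly depends on the scaling.

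**Figure D2:**
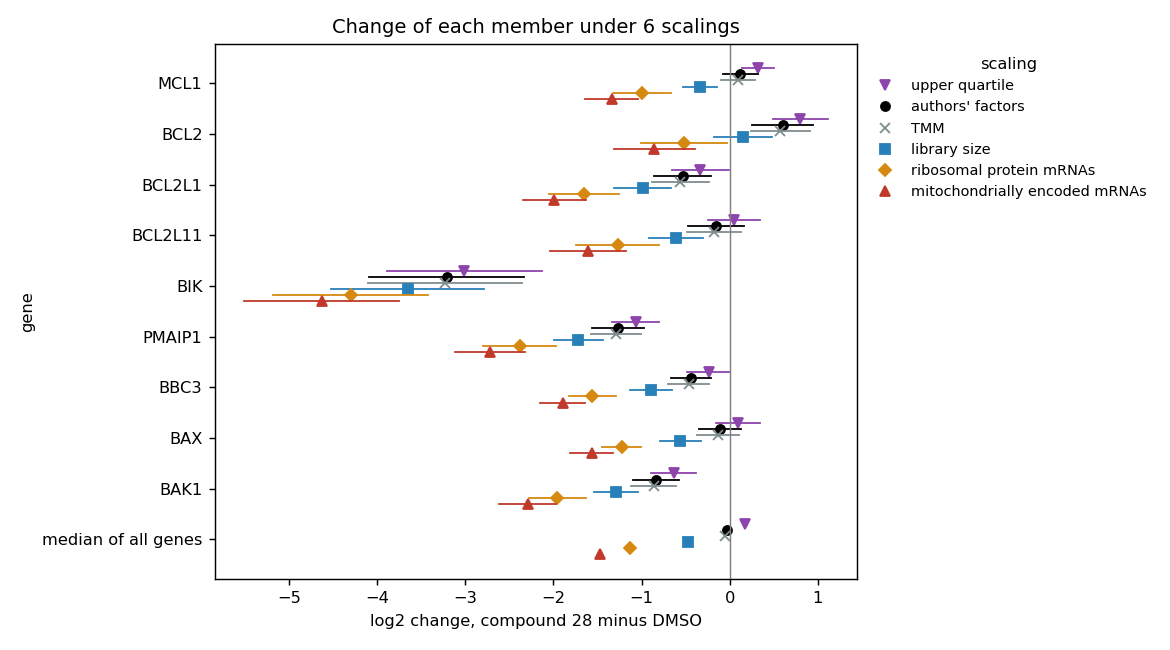
Log2 change, compound 28 minus DMSO, of the 9 tested members under 6 scalings, with 95% intervals as lines; the bottom row gives the median over all tested genes. The members keep their order while the whole set moves left with library sizes, ribosomal protein mRNAs and mitochondrially encoded mRNAs, and BIK, PMAIP1 and BAK1 lie left of 0 under every scaling shown.

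A ratio of 2 genes within a library is the same under every scaling. The log2 ratio of BCL2 over MCL1 was 0.34, 0.27 and 0.50 in compound 28 libraries, against -0.29, -0.22 and 0.16 in DMSO libraries. BCL2 thus exceeded MCL1 in normalized counts in all 3 compound 28 libraries and in 1 DMSO library, without regard to length. The log2 ratio of PMAIP1 over MCL1, a sensor and its main partner, was -4.34, -4.37 and -3.96 in compound 28 libraries, against -2.85, -2.84 and -2.83 in DMSO libraries. That is a 2.62-fold lower ratio, and the DMSO libraries differed from each other by far less than the groups did. The log2 ratio of BIK over MCL1 was -9.04, -7.48 and -7.12 in compound 28 libraries, against -4.28, -4.47 and -4.77 in DMSO libraries. Relative to MCL1, the mean log2 ratio differed between the groups by -0.65 for BCL2L1, -0.27 for BCL2L11, -0.56 for BBC3 and -0.96 for BAK1. The groups did not overlap for any of these. For BCL2L11, itself not called, the gap was narrow, from -2.38 in compound 28 replicate 1 to -2.34 in DMSO replicate 1. For BAX over MCL1 the difference was -0.23 and the groups overlapped. Of all tested genes, 75.7% had no overlap in normalized counts. The share without overlap over all ratios to MCL1 was not computed.

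**Figure D3:**
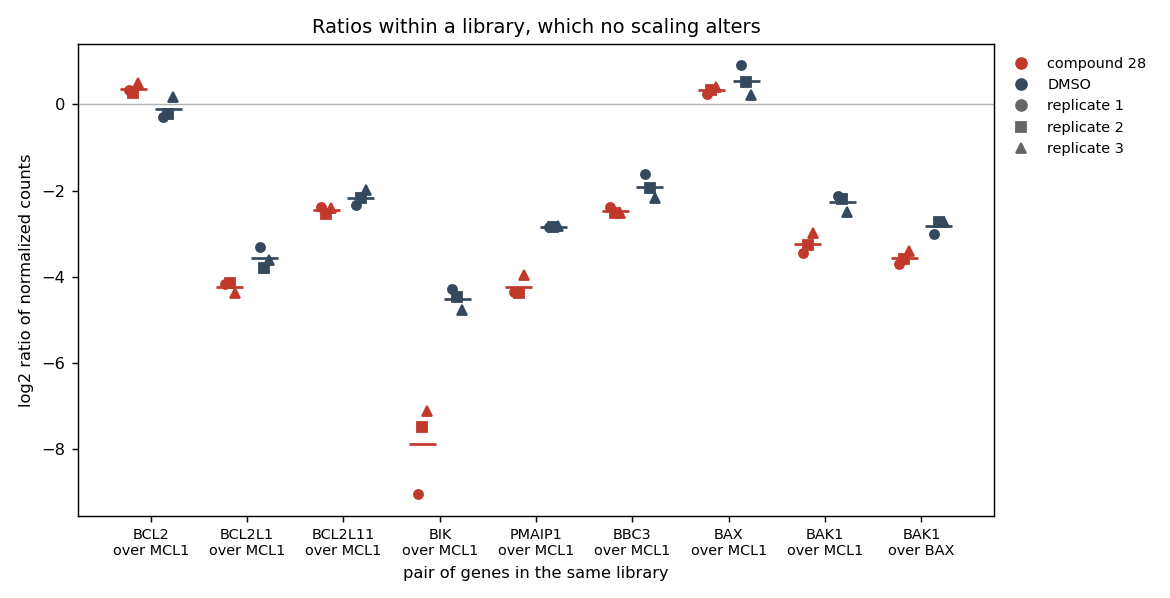
Log2 ratio of normalized counts between pairs of members within each library, with compound 28 in red on the left and DMSO in dark blue on the right of each pair; short lines are group means. Among the pairs drawn, the groups overlap only for BAX over MCL1, where 75.7% of all tested genes had no overlap in normalized counts. Such a share was not computed for ratios, and all pairs but BAK1 over BAX share MCL1. BIK over MCL1 has the widest gap, with -9.04 to -7.12 in compound 28 libraries.

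Summed per kb, antiapoptotic transcripts made up 36.5%, 35.3% and 34.5% of the family total in compound 28 libraries, against 23.5%, 26.9% and 32.1% in DMSO libraries. BH3-only transcripts made up 11.7%, 11.0% and 11.4% in compound 28 libraries, against 17.6%, 18.7% and 19.2% in DMSO libraries. Pore-forming transcripts, mainly BAX, made up 53.2% ± 1.28 in compound 28 libraries and 54.0% ± 5.08 in DMSO libraries (SD, n = 3 each). The BH3-only share was lower and the antiapoptotic share higher in all 3 compound 28 libraries, while the pore-forming shares overlapped. The log2 ratio of BH3-only over antiapoptotic sums was -1.64 ± 0.04 in compound 28 libraries and -0.56 ± 0.17 in DMSO libraries, a 2.11-fold lower ratio with no overlap. The antiapoptotic sums themselves overlapped, at 2724, 2665 and 2662 normalized counts per kb in compound 28 libraries, against 2108, 2240 and 2690 in DMSO libraries. The BH3-only sums did not, at 872, 830 and 880 in compound 28 libraries, against 1583, 1558 and 1605 in DMSO libraries. Without length, at the authors' scaling, the antiapoptotic sums did not overlap either. They were 17897, 17291 and 18018 normalized counts in compound 28 libraries, against 12258, 13353 and 16903 in DMSO libraries. A share also depends on the other classes in the total. MCL1, which was not called, stood at 22.9% ± 1.04 of the family total in compound 28 libraries and 18.7% ± 2.36 in DMSO libraries, and BCL2 at 10.9% ± 0.530 in compound 28 libraries and 6.57% ± 1.93 in DMSO libraries. BIK made up 0.506% ± 0.267 in compound 28 libraries and 3.77% ± 0.212 in DMSO libraries, and PMAIP1 made up 2.40% ± 0.279 in compound 28 libraries and 5.13% ± 0.673 in DMSO libraries. These shares concern transcripts and give no level of protein.

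**Figure D4:**
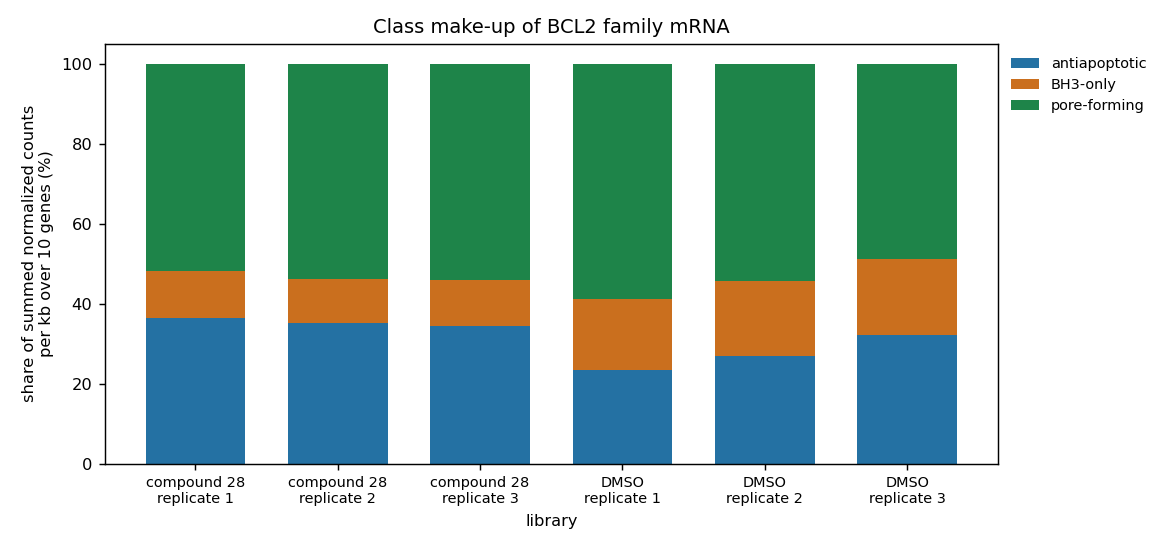
Share of the 3 classes in the summed normalized counts per kb of the 10 members, in percent, 1 bar per library with compound 28 on the left. The BH3-only segment is 11.0% to 11.7% in compound 28 libraries and 17.6% to 19.2% in DMSO libraries; the pore-forming segment is 51.8% to 54.2% in compound 28 libraries and 48.7% to 58.9% in DMSO libraries and overlaps between the groups.

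Genes that act with the 10 members were read from 5 lists, whose counts stand beside 35.6% of all tested genes called higher and 37.2% lower, and whose medians stand beside -0.03 over all tested genes. Among 12 other BCL2 family genes in the fit, 3 rose and 4 fell, 5 were not called, and the median log2 change was 0.02. BCL2L10, an antiapoptotic relative, fell most, with 198 ± 23.0 normalized counts in compound 28 libraries and 1308 ± 72.5 in DMSO libraries (log2 change -2.72, adjusted p = 6.24e-08). BMF, a BH3-only sensor, stood at 409 ± 4.40 normalized counts in compound 28 libraries and 2182 ± 11.1 in DMSO libraries (-2.41, adjusted p = 3.45e-08). BCL2L2, which encodes the protector BCL-W, rose most (0.53, adjusted p = 0.000437), and BID, the most abundant of the list over all 6 libraries, rose by less (0.25, adjusted p = 0.0228). Scaled on mitochondrially encoded mRNAs, BCL2L2 stood at -0.92 and BID at -1.21. BCL2L2 lost its call with library sizes (0.08, adjusted p = 0.470), and BID lost its call without compound 28 replicate 2 (adjusted p = 0.0576), compound 28 replicate 3 (0.0665) or DMSO replicate 2 (0.0688). HRK, a BH3-only gene, had 20 reads over the compound 28 libraries and 0 over the DMSO libraries. That is at least 13.9-fold higher if the DMSO group is set to a floor of 3 reads. HRK did not pass the filter and was not tested, and with 0 DMSO reads it could only stand higher. Of the BH3-only genes outside the 10, BAD was not called (-0.20, adjusted p = 0.223).

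In the list of the apoptosome and the caspases, 12 of 15 genes fell, 2 rose and 1 was not called. Of all tested genes, 37.2% fell and 35.6% rose. The median log2 change of the list was -0.87. HTRA2, a protease that leaves mitochondria when the pore opens, fell most, to 240 ± 23.7 normalized counts in compound 28 libraries, against 995 ± 23.9 in DMSO libraries (log2 change -2.05, adjusted p = 2.30e-07). The initiator caspases CASP9 (-1.18, adjusted p = 3.44e-05) and CASP8 (-0.87, adjusted p = 3.53e-05) fell as well. APAF1, the scaffold that cytochrome c assembles, rose with the authors' size factors (0.68, adjusted p = 0.000163). DIABLO, an antagonist of the inhibitor of apoptosis proteins, rose as well (1.16, adjusted p = 6.77e-05, and -0.29 scaled on mitochondrially encoded mRNAs). Neither was called higher with mitochondrially encoded or ribosomal protein mRNAs as the scale. CYCS, cytochrome c itself and the most abundant of the list, was not called (0.09, adjusted p = 0.327).

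Inhibitor of apoptosis proteins block caspases or their activation, and of the 5 in the fit 3 rose, 0 fell and 2 were not called, with a median log2 change of 0.82. XIAP, which binds caspases directly, stood at 3431 ± 249 normalized counts in compound 28 libraries and 1631 ± 166 in DMSO libraries (log2 change 1.07, adjusted p = 4.80e-06). BIRC6 (0.96, adjusted p = 6.77e-05) and BIRC2 (0.82, adjusted p = 1.04e-05) rose too. With mitochondrially encoded or ribosomal protein mRNAs as the scale, BIRC2 was not called higher. XIAP and BIRC6 kept their direction with library sizes, TMM and upper-quartile factors and turned to -0.38 and -0.49 with mitochondrially encoded mRNAs, and to -0.04 and -0.15 with ribosomal protein mRNAs.

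Among 8 genes that act on the MCL1 protein's turnover, 3 rose, 4 fell and 1 was not called, with a median log2 change of -0.63. FBXW7, which marks MCL1 for degradation, stood at 4957 ± 422 normalized counts in compound 28 libraries and 1339 ± 61.8 in DMSO libraries (log2 change 1.89, adjusted p = 8.46e-08). TRIM17, another ubiquitin ligase of MCL1, fell most (-2.49, adjusted p = 0.00155) at 11.2 ± 7.89 normalized counts in compound 28 libraries and 56.2 ± 6.07 in DMSO libraries, and stood at -1.84 without compound 28 replicate 3. HUWE1, the most abundant, was not called (-0.19, adjusted p = 0.359), and USP9X, which removes ubiquitin from MCL1, rose (0.45, adjusted p = 0.00853). USP9X was not called higher with mitochondrially encoded or ribosomal protein mRNAs as the scale.

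Of 9 genes of outer membrane channels and of mitochondrial fission and fusion, 3 rose, 5 fell and 1 was not called, with a median log2 change of -0.46. FIS1, an adaptor of fission, rose most (0.92, adjusted p = 1.90e-06), and DNM1L, the fission GTPase, fell most (-1.16, adjusted p = 2.24e-06). VDAC1, the main channel of the outer membrane and the most abundant of the list, rose (0.61, adjusted p = 3.86e-05), while VDAC3 fell (-0.85, adjusted p = 3.15e-06). VDAC1 lost its call with library sizes (0.16, adjusted p = 0.0848). With ribosomal protein mRNAs as the scale, FIS1 stood at -0.20 and VDAC1 at -0.51, and with mitochondrially encoded mRNAs at -0.54 and -0.85.

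**Figure D5:**
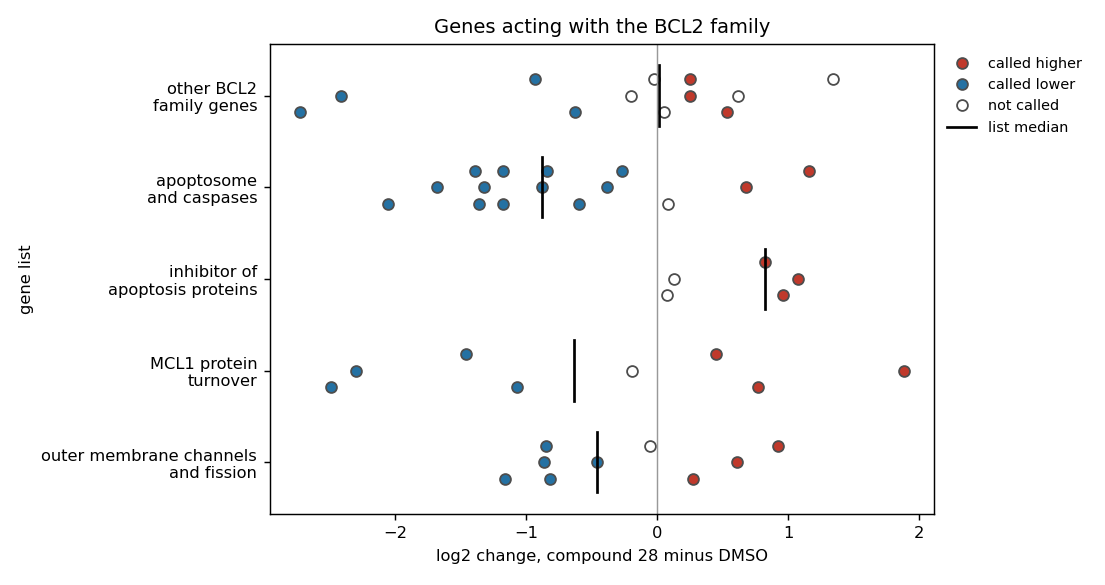
Log2 change, compound 28 minus DMSO, of each tested gene of 5 lists, filled red where called higher, blue where called lower and white where not called; black bars are list medians. The apoptosome and caspase list lies mostly left of 0 with a median of -0.87, and the inhibitor of apoptosis proteins lie right of 0 with a median of 0.82.

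The genes with the profile most like that of BCL2 over the 6 libraries, after centring each on its mean log2 value, were CHST11, SSH2 and MTPN, at a root mean square distance of 0.0379, 0.0400 and 0.0499. Their changes of 0.56, 0.63 and 0.57 on the log2 scale lie near that of BCL2 because they were chosen by this distance. That they stood lower, like BCL2, when mitochondrially encoded or ribosomal protein mRNAs set the scale follows from the same choice. Those most like BIK, chosen in the same way, were MRPL53, APOL2 and GPR20, at a distance of 0.116, 0.143 and 0.161. Their log2 changes were -3.40, -3.37 and -3.16. MRPL53 averaged 7.96 normalized counts in compound 28 libraries and 84.0 in DMSO libraries, so that few reads carried its profile.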

How the data were processed

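Polyadenylated RNA was sequenced from 6 libraries, with groups taken from the sample titles. Per the submitters' processing notes, the tools were fastp, HISAT2, StringTie, SAMtools and HTSeq, with GRCh37 and hg19 named as builds; versions and settings were not given in these sources. The deposited signal is, from the values, a read count per gene that the authors divided by 1 size factor per library; 100% of values were whole reads within 0.01 read, so reads were recovered. A log2 fold change, a test score and p-values, also deposited by the authors, were used only where named. Of 32327 rows, 5 counter rows and 54 further rows were not used here; of the rest, 95.8% matched GENCODE 29 by symbol, which gave exon lengths and overlapping genes.

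Because the values were normalized counts, limma-trend was fitted to log2(normalized count + 1) over all genes kept by filterByExpr on recovered reads, with Benjamini-Hochberg adjustment and no replicate block, in R 4.3.3 with limma 3.58.1, edgeR 4.0.16 and DESeq2 1.42.0. The fit was tested on simulated data in which few genes changed, so that test does not bear on the choice of scaling. Fold changes are on this log2 scale. Alternatives were 5 other scalings, pseudocounts of 0.5 and 5, other filters, edgeR and DESeq2 on recovered reads, a replicate block and leaving out each library. Named genes were all members, the largest called rise, the largest called fall and the most abundant gene of each list, and 3 nearest profiles of BCL2 and BIK; the further list genes in the text were named after their values were seen. The members and lists were chosen with earlier results of these data known. Same-numbered libraries of the 2 groups were not treated as pairs.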

Additional observations from a re-analysis of the deposited data

How the results depend on the processing

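BIK, PMAIP1 and BAK1 kept their direction and their calls under all 18 alternatives. BBC3 and BCL2L1 lost their calls with upper-quartile factors (-0.24 and -0.33, adjusted p = 0.0755 and 0.0626). With library sizes only, 0 members were called higher and 8 lower, 4257 genes and 7 list genes higher. With upper-quartile factors 2 members were called higher and 3 lower. With mitochondrially encoded mRNAs, 0 members were called higher and 9 lower, of all genes 1839 and 13880, of list genes 1 and 45. With ribosomal protein mRNAs these counts were 0 and 8, 2261 and 12434, and 1 and 40. Pseudocount, filter, edgeR and DESeq2 changed no member's call, except that BCL2A1 was called lower without a filter; edgeR called 6410 genes higher and 6901 lower. Numbers of same-numbered libraries did not pair them (correlations of deviations -0.03, 0.04 and 0.06), and the replicate block gave 1 member higher, 5 lower, and 6546 genes higher and 6768 lower. Leaving out 1 library gave 1 to 2 members higher and 5 to 6 lower. The sixth was BCL2L11 without DMSO replicate 1, and otherwise BCL2A1, which then passed the filter. BCL2A1, with 0 reads in compound 28 libraries, could pass only through the DMSO libraries. The direction of its call was thus fixed in advance and lends no support.

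Several log2 changes turned sign. With library sizes MCL1 stood at -0.33, BID at -0.20 and CYCS at -0.37. With upper-quartile factors BCL2L11 stood at 0.048, BAX at 0.10 and HUWE1 at 0.012. With mitochondrially encoded mRNAs the values were -1.34 for MCL1, -0.86 for BCL2, -0.92 for BCL2L2, -1.21 for BID, -0.29 for DIABLO, -1.37 for CYCS, -0.38 for XIAP, -0.49 for BIRC6, -0.54 for FIS1, -0.85 for VDAC1, -0.90 for CHST11, -0.82 for SSH2 and -0.88 for MTPN. With ribosomal protein mRNAs they were -0.999 for MCL1, -0.52 for BCL2, -0.59 for BCL2L2, -0.87 for BID, -1.03 for CYCS, -0.043 for XIAP, -0.15 for BIRC6, -0.20 for FIS1, -0.51 for VDAC1, -0.56 for CHST11, -0.48 for SSH2 and -0.54 for MTPN. Leaving out 1 library gave -0.30 to 0.0045 for BCL2L11, -0.20 to 0.0050 for BAX and -0.37 to 0.029 for HUWE1. Without length, the log2 ratio of summed BH3-only over antiapoptotic genes differed between the groups by -0.89 in place of -1.08, and that of BH3-only over pore-forming genes by -0.38, with overlap, in place of -0.69. That of pore-forming over antiapoptotic genes differed by -0.52 with no overlap in place of -0.39 with overlap. These scalings shift all genes of a library alike; which one reflects RNA per cell was not tested. The 0 reads of BCL2A1 allow up to 3 reads over the compound 28 group, counting error only.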

Other observations

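Rows next to the family by name, chosen after their values were seen, held some of its widest differences. BCL2L2-PABPN1, annotated as a transcript that runs from the protector BCL2L2 into its neighbour PABPN1, had 103, 141 and 163 normalized counts in compound 28 libraries, against 10.4, 14.2 and 17.2 in DMSO libraries. The groups were far apart, and the log2 change was 3.19 (limma-trend, adjusted p = 6.47e-06), a 9.13-fold rise. Its parts rose by less, BCL2L2 by 1.45-fold and PABPN1, a poly(A) binding protein, by 2.15-fold. The 3 rows share exons, and how reads over shared exons were counted is uncertain.

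Genes named as partners of BCL2 differed among themselves. BNIPL had 172, 278 and 208 normalized counts in compound 28 libraries, against 7.53, 16.2 and 18.1 in DMSO libraries (log2 change 3.94, adjusted p = 3.60e-06). BNIP1 had 61.7, 32.7 and 38.9 in compound 28 libraries, against 302, 276 and 305 in DMSO libraries (-2.75, adjusted p = 4.02e-06). BNIP2 rose by 1.24-fold (adjusted p = 0.0366), and the groups overlapped, with 4291 normalized counts in DMSO replicate 3 above the 4185 of compound 28 replicate 2. BAK1P1, a pseudogene of BAK1, averaged 10.6 normalized counts in compound 28 libraries and 10.1 in DMSO libraries, few beside the 811 and 1443 of BAK1 itself in compound 28 and DMSO libraries.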
